A study of Mus musculus with 6 samples.

Results

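The genes Otx2, Fgf5, Pou3f1, Zic2, Lef1, Grhl2, Foxd3 and Sox11 were taken as markers of the formative and primed states that follow the naive state of mouse pluripotent cells, although Foxd3 is already expressed in naive cells. The peaks described here were chosen by position alone: every ATAC-seq peak that overlapped the body of 1 of the 8 genes, or lay within 50 kb of it, in the GENCODE annotation for mm9. By this rule 20 of 22698 peaks in the WT list and 19 of 23656 peaks in the Spen KO clone 3 list belonged to the 8 genes. The cells were haploid mouse embryonic stem cells (mESCs) of mixed genomic background, grown in serum and LIF on gelatin. Both lines carried a doxycycline-inducible Xist transgene. WT was the parental HATX genotype, and Spen KO clone 3 was a single clone with most of Spen deleted, an RNA-binding repressor needed for X inactivation. The 6 sample records give 3 lines, each without doxycycline and with 2 ug/mL for 48 hours. The lists name the line only, so which doxycycline state they hold is not stated. Clone 2 of the knockout was not analysed here. ATAC-seq reads out accessible DNA by where the Tn5 transposase inserts, and a peak is a stretch of such DNA, often a promoter or an enhancer. It is not a measure of expression.

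Naive mESCs resemble the epiblast before implantation. On the way to germ layers they pass through a formative state and then a primed state, in which transcription factors such as Otx2 and Pou3f1 occupy new enhancers together with Oct4, and naive genes such as Esrrb and Klf4 are shut off. In serum and LIF most cells are close to the naive state, and most formative genes are low or expressed in a minority of cells. Many of these genes are developmental regulators with CpG-rich promoters that Polycomb proteins mark in mESCs.

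Each list came from 2 technical replicates that the authors combined, so there is 1 list per line and no test between the lines was possible. The spread between the 2 replicates is the only error available, and it covers neither separate cultures nor clones. The scale of the deposited replicate values is not named and the read depth is unknown. Values were therefore turned into percentiles, the share of a list's peaks with a value at or below the given one, for the mean of both replicates and for each replicate in its own column. Over all peaks the replicates' values correlated at a Spearman rho of 0.829 in WT and 0.834 in Spen KO clone 3, across peaks, which are not independent replicates. The authors had kept only peaks on which the same 2 replicates agreed by the irreproducible discovery rate (IDR). The correlation therefore covers peaks already chosen for agreement and does not measure replicate quality. A peak was counted as shared where 1 bp or more of it lay under a peak of the opposite list. A shared peak is called higher or lower in Spen KO clone 3 only where both of its replicate percentiles lie on that side of both WT percentiles. Of 7 mESC marker genes, Pou5f1, Esrrb, Zfp42 and Utf1 had a peak at a start in both lists, Sox2 and Sall4 only in the WT list and Nanog in neither. Of 8 marker genes of other cell types, Pax6 had a start peak in both lists, Gata4 only in WT and Eomes only in Spen KO clone 3. The body of Spen held 1 peak, at its start and shared, in each list. Which part of the gene was deleted was not taken from the files, so this peak checks nothing about the deletion.

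Of the 20 WT peaks at the 8 genes 13 were shared and 7 were found in WT only, which is 35.0% (95% Wilson interval 18.1% to 56.7%). Of the 19 Spen KO clone 3 peaks 13 were shared and 6 were found in that list only, which is 31.6% (15.4% to 54.0%). Over all peaks the shares were 25.7% in WT and 28.6% in Spen KO clone 3. Both background shares lie inside the intervals, which cover counting error only. With both lists limited to an IDR of at most 0.01 the shares at the 8 genes were 66.67% of 12 WT peaks and 50% of 8 Spen KO clone 3 peaks, against 26.9% and 22.4% over all peaks, so how near they stood to the background depended on the threshold. Distal peaks, those with no base within 1 kb of an annotated start of a coding gene, numbered 15 in each list, and 5 of the 15 were in one list only in WT and 5 in Spen KO clone 3. Over all distal peaks 29.4% were in WT only and 38.0% in Spen KO clone 3 only. At the deposited threshold the totals for the 8 genes stood near the background, and the loci differed among themselves.

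The peak at the Pou3f1 start and all 4 peaks around Grhl2 were in the WT list only. Of the 3 shared peaks near Pou3f1 2 ranked lower in Spen KO clone 3, and the replicates of the other overlapped. Of the 4 shared peaks near Lef1 the one in a Lef1 intron ranked higher in Spen KO clone 3, as did the Fgf5 intron peak, and the Lef1 window held a further pair of peaks found only there, 1 in a Lef1 intron and 1 in an intron of the neighbouring gene Hadh. All 3 Otx2 peaks and the Zic2 start peak were shared, with overlapping replicate percentiles, Foxd3 had 1 shared peak and 1 peak in Spen KO clone 3 only, and Sox11 had no peak in either list.

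**Figure D1:**
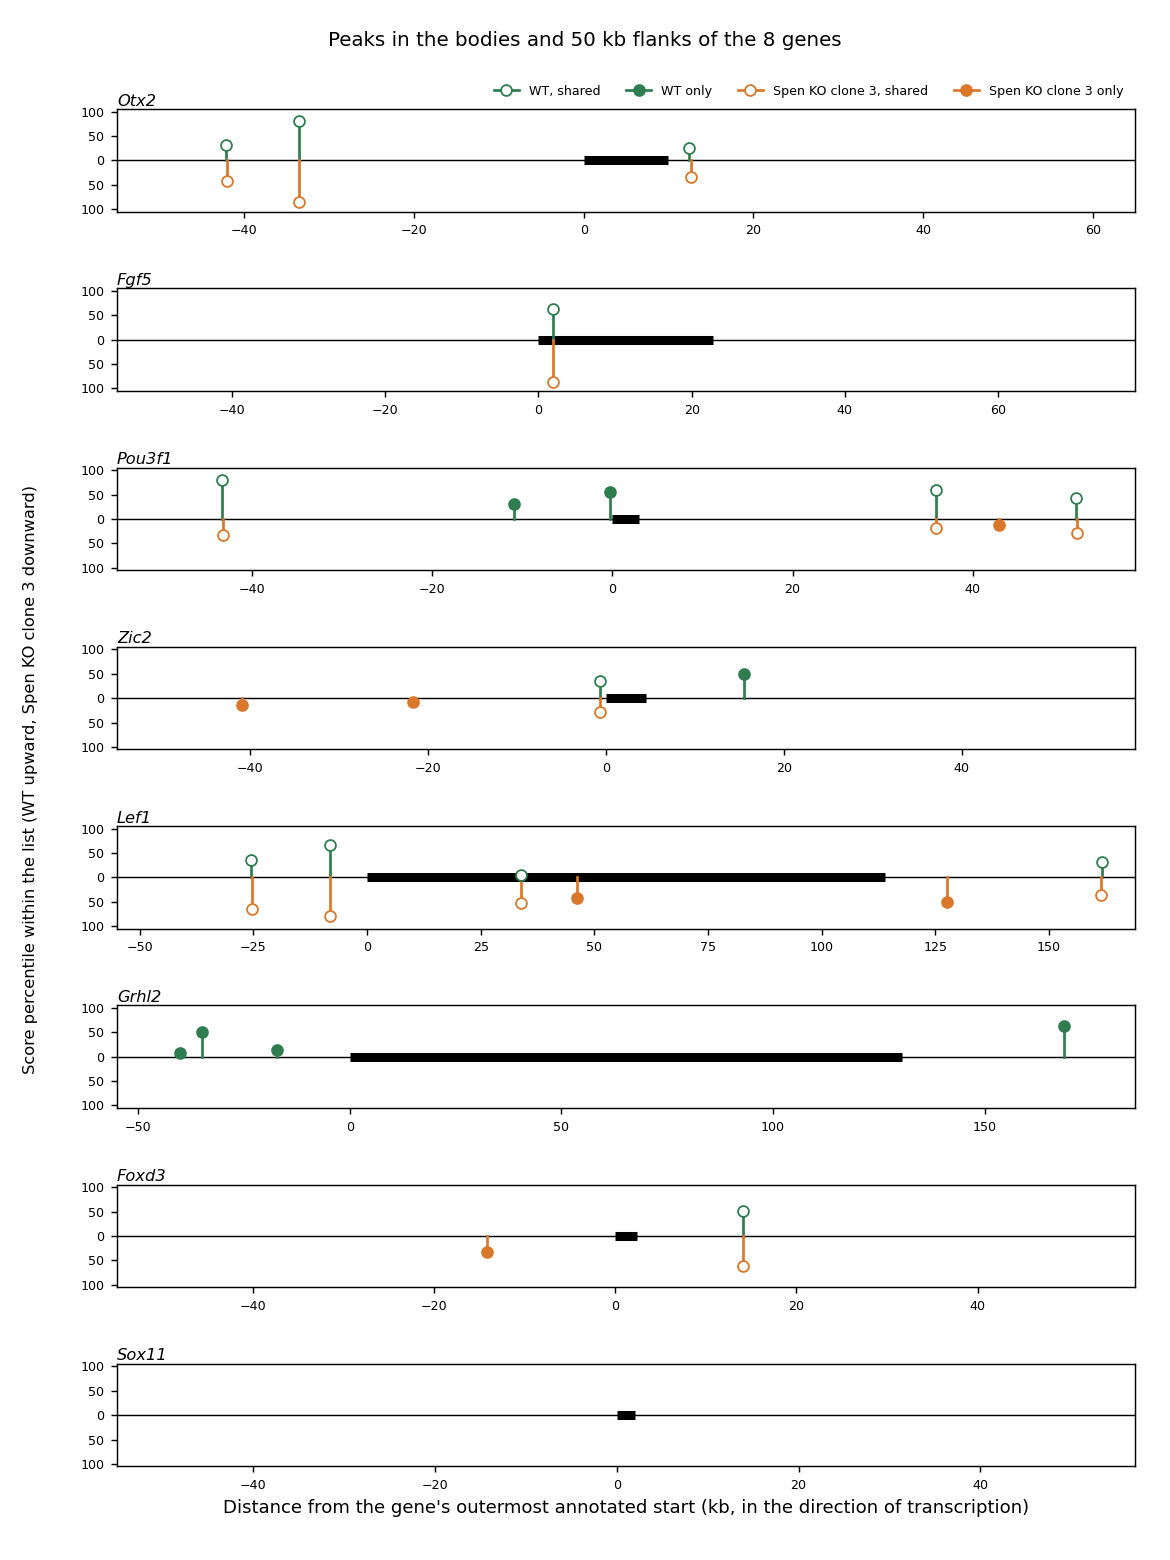
Peaks at the 8 genes, by the distance of the peak midpoint from the outermost annotated start in kb (x axis) and the score percentile within the list (y axis, WT upward in green and Spen KO clone 3 downward in orange). Black bars are gene bodies, open circles are shared peaks and filled circles are peaks in 1 list only. Grhl2 has 4 filled WT circles and no Spen KO clone 3 peak, Pou3f1 has a filled WT circle at its start, and Sox11 has none.

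Of the 8 genes, Zic2 had a peak within 1 kb of an annotated start in both lists, Pou3f1 in WT only, and Otx2, Fgf5, Lef1, Grhl2, Foxd3 and Sox11 in neither. The near edge of the shared Fgf5 peak lay 1.52 kb from the start in WT and 1.54 kb in Spen KO clone 3, so Fgf5 depends on the 1 kb limit. With starts extended to 2000 bp the 8 genes had 3 start peaks in WT in place of 2, and 2 in Spen KO clone 3 in place of 1. Over 22350 coding genes 37.9% had a start peak in both lists, 8.24% in WT only, 4.46% in Spen KO clone 3 only and 49.4% in neither. A start was called CpG-rich where the 1000 bp around it had a GC content of at least 55% and an observed to expected CpG ratio of at least 0.6. This criterion was chosen after the start peaks had been seen, and only the outermost annotated start of each gene was scored. By this measure 7 of the 8 genes have a CpG-rich start, all but Otx2, whose outermost start has a GC content of 43.0% and a ratio of 0.522. The further annotated starts of Otx2 were not scored. Of the 7 genes with a CpG-rich start 5, Fgf5 among them, had no start peak in either list, against 19.3% of the 8610 coding genes with a CpG-rich start. By the same measure it was 0 of 9 other formative and primed genes, 3 of 11 family members, 0 of 4 naive genes and 4 of 5 marker genes of other cell types. Of the 16 other formative and primed genes 10 had a start peak in both lists, none in WT only, 3 in Spen KO clone 3 only and 3 (Sox4, Zic5 and Nodal) in neither. At 3 of the 10 (Dnmt3b, Sall2 and Foxp1) the start peaks of the lists lay at different positions and none was shared, which was so at 63 of the 8465 coding genes with a start peak in both lists. The 3 in Spen KO clone 3 only were Sox3, Tcf15 and Cdh2, at mean percentiles of 5.25, 21.5 and 32.5. Of the 19 relatives from the same gene families 11 had a start peak in both lists, 2 (Tcf7 and Grhl3) in WT only, 1 (Otx1) in Spen KO clone 3 only and 5 in neither. Of 11 naive genes 6 had one in both lists, 1 in WT only, 2 in Spen KO clone 3 only and 2 in neither. Some genes are in more than one of these lists.

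**Figure D2:**
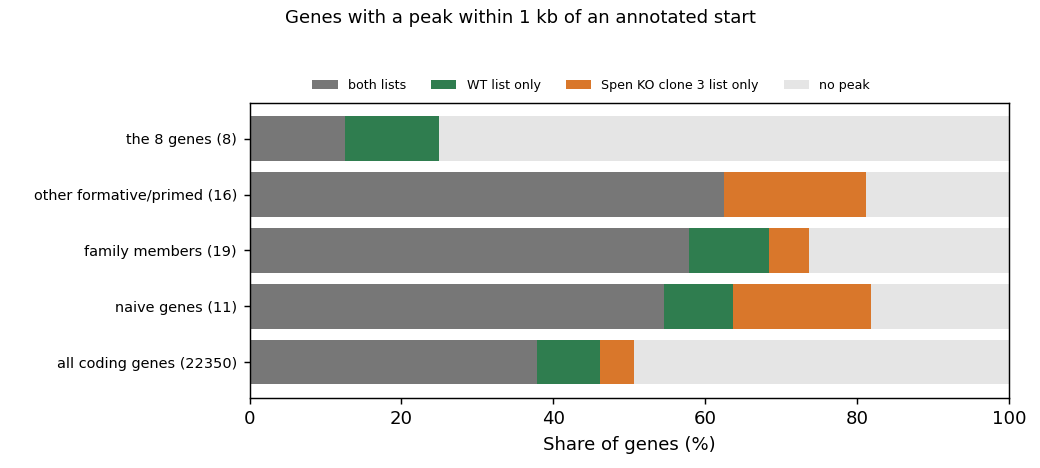
Share of genes (x axis, %) with a peak within 1 kb of an annotated start in both lists, in the WT list only, in the Spen KO clone 3 list only or in neither, for the 8 genes, 16 other formative and primed genes, 19 family members, 11 naive genes and 22350 coding genes (number of genes in brackets). Of the 8 genes 6 fall in the group with no start peak. Of the 10 other formative and primed genes shown under both lists, 3 have start peaks at different positions.

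Otx2, the homeodomain factor that directs the exit from the naive state, lies on the minus strand of chr14 from 49277354 to 49287319 in mm9 and had 3 peaks, all intergenic and all shared. The strongest, 49320532 to 49321198 in WT and 49320517 to 49321132 in Spen KO clone 3, lay 33.5 kb upstream of the start. Its replicate percentiles were 82.7 and 79.2 in WT and 74.5 and 89.7 in Spen KO clone 3, so the lines overlapped. The peak 42.1 kb upstream had percentiles of 38.2 and 29.4 in WT and 56.6 and 29.4 in Spen KO clone 3. The peak 12.5 kb from the start on the downstream side had 28.0 and 29.6 in WT and 48.4 and 25.8 in Spen KO clone 3. None of the 3 was called higher or lower, and their shifts in mean percentile were 2.99, 11.05 and 9.47 points. Of the 7 annotated starts none had a peak within 1 kb.

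Fgf5, a secreted growth factor and a standard marker of the epiblast after implantation, lies on the plus strand of chr5 from 98683203 to 98706049. Its single peak, in an intron 1.85 kb from the start, was shared. It spanned 98684720 to 98685384 in WT and 98684739 to 98685342 in Spen KO clone 3. The replicate percentiles were 72.2 and 46.2 in WT and 75.4 and 92.4 in Spen KO clone 3. The lists did not overlap, by a margin of 3.25 points, while the WT replicates lay 26.0 points apart. Its mean percentile went from 62.4 in the WT list to 86.8 in the Spen KO clone 3 list, the highest of any peak at the 8 genes. The sequence at the centre of the Spen KO clone 3 peak is shown because this intron held all the accessibility listed at Fgf5. The capitals mark the ZIC letters CCTGCTG, on the reverse strand.
Fgf5 intron, mm9 chr5:98684891-98685190, plus strand: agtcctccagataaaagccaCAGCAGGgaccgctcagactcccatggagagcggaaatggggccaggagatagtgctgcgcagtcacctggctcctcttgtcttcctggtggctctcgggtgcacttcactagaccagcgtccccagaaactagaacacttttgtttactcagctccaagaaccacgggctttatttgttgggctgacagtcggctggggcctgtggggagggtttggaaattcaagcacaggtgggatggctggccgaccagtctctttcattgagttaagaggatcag

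Pou3f1, a POU factor that binds octamer sequences and acts with Otx2 in the formative state, lies on the plus strand of chr4 from 124334896 to 124337899. The annotation also holds an overlapping pseudogene entry of the same name, which was not used. The peak at its start, 124334279 to 124334983, was in the WT list only. Its replicate percentiles there were 41.4 and 66.6, with a mean percentile of 55.8, above the median of the list. The nearest Spen KO clone 3 peak was 35.6 kb away. Among all peaks with a score at or above their list's median 6.17% were in WT only and 9.28% in Spen KO clone 3 only, whereas 4 of the 10 such WT peaks at the 8 genes were in WT only, as was 1 of the 7 in Spen KO clone 3 in that list only. The 95% Wilson intervals ran from 16.8% to 68.7% in WT and from 2.57% to 51.3% in Spen KO clone 3. The 4 WT peaks were this one, a pair near Grhl2 and 1 near Zic2. They had mean percentiles of 50.3 to 62.8, close to the median that set the limit, whereas the background covers peaks up to the top of the list. The sequence under the WT peak is shown because, of the starts of the 8 genes, it was the one with a peak in one list and not in the other. It holds none of the 5 motifs searched and ends before the start.
Pou3f1 start, mm9 chr4:124334482-124334781, plus strand: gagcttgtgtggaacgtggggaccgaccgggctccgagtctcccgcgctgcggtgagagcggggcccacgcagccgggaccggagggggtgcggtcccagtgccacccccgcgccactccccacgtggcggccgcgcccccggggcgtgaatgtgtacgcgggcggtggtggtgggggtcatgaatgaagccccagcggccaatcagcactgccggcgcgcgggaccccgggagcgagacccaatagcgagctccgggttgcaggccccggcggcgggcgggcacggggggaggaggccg
A further WT peak 10.9 kb upstream was missing from the Spen KO clone 3 list, at percentiles of 35.9 and 32.7.

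The shared peak 43.3 kb upstream of Pou3f1, 124291395 to 124291809 in WT, had the largest downward shift at the 8 genes. Its replicate percentiles were 74.9 and 83.3 in WT and 44.6 and 25.7 in Spen KO clone 3, with mean percentiles of 80.0 and 32.8. The lists were separated by 30.3 points, and 0.533% of all shared peaks had a lower shift. The start of Utp11l, a neighbouring gene, had 35.6 and 75.1 in WT and 21.3 and 20.6 in Spen KO clone 3, a separation of 14.3 points. The peak 51.4 kb downstream had 19.1 and 64.6 in WT and 14.6 and 50.1 in Spen KO clone 3, which overlap. A peak at the start of Fhl3 was in Spen KO clone 3 only, at percentiles of 9.79 and 14.8. The shared peaks within 1 Mb other than these 3 had a median shift of -3.96 points (n = 22). The sequence at the centre of the WT peak 43.3 kb upstream is shown for the size of its shift, and it too holds none of the motifs.
Pou3f1 upstream, mm9 chr4:124291453-124291752, plus strand: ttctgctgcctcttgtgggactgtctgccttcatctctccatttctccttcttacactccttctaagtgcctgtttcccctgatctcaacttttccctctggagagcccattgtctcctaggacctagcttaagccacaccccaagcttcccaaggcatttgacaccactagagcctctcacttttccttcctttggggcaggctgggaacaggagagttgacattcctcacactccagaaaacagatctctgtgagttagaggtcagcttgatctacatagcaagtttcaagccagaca

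Zic2, a zinc finger factor of the primed epiblast and the neural plate, lies on the plus strand of chr14 from 122874604 to 122879074. It was the one gene with a start peak in both lists, and that peak was the longest at the 8 genes, 1287 bp in WT (122873283 to 122874569) and 1272 bp in Spen KO clone 3. Its replicate percentiles were 41.7 and 30.4 in WT and 21.5 and 39.3 in Spen KO clone 3, which overlap. The peak at the start of Gm10837, 15.5 kb downstream, was in WT only, at 43.7 and 56.3. A pair of upstream peaks at 40.9 and 21.8 kb was in Spen KO clone 3 only, both weak, with mean percentiles of 14.9 and 8.38. Zic5, a relative of Zic2 whose start lies in this window, had no start peak in either list.

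Lef1, a DNA-binding effector of Wnt signalling, lies on the plus strand of chr3 from 130813389 to 130927274. All 4 of its WT peaks were shared, and all 4 had a higher mean percentile in Spen KO clone 3, but 1 passed the rule on both replicates. That peak, in an intron 33.9 kb from the start, spanned 130847048 to 130847466 in WT and 130847140 to 130847472 in Spen KO clone 3. It had replicate percentiles of 10.5 and 3.27 in WT and 37.2 and 63.8 in Spen KO clone 3, a separation of 26.7 points. The mean percentiles were 5.19 and 51.5, and 99.0% of all shared peaks had a lower shift. Shared peaks within 5 points of the same WT percentile, a comparison made after this peak had been seen, shifted by a median of 7.31 points (quartiles 1.32 to 18.3, n = 586). The peak 25.4 kb upstream had 29.5 and 46.6 in WT and 76.2 and 45.6 in Spen KO clone 3, which overlap narrowly. The peak 8.08 kb upstream, the highest of the locus, had 79.1 and 45.1 in WT and 69.8 and 84.2 in Spen KO clone 3, which also overlap. A peak at the start of Hadh, the neighbouring metabolic gene, shifted by 6.03 points, with overlapping replicates.

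The Lef1 window also had a pair of peaks in Spen KO clone 3 only. The one in a Lef1 intron 46.2 kb from the start had replicate percentiles of 17.1 and 65.3, so its replicates differed widely. The one in a Hadh intron, 128 kb from the start, had 52.0 and 49.9 and was, of the 7 Spen KO clone 3 peaks at the 8 genes at or above the list's median, the one that was not shared. On chr3 as a whole 24.1% of WT peaks and 32.2% of Spen KO clone 3 peaks were in one list only. The sequence at the centre of the Spen KO clone 3 peak 33.9 kb into the gene is shown for its upward shift, the largest at the 8 genes. The capitals mark the OTX letters TAATCC, on the reverse strand, which the WT window holds as well.
Lef1 intron, mm9 chr3:130847157-130847456, plus strand: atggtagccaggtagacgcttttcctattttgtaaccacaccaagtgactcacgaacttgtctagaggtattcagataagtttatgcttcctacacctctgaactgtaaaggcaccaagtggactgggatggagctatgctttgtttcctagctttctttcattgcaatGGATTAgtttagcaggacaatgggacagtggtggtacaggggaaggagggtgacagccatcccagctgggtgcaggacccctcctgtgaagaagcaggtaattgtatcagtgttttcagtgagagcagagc

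Grhl2, a grainyhead factor that opens epithelial enhancers in the formative state, lies on the plus strand of chr15 from 37162791 to 37293324. It had 4 peaks in WT and none in Spen KO clone 3. The 3 upstream peaks were intergenic, at 40.0, 34.9 and 17.2 kb from the start. Their replicate percentiles were 3.67 and 13.4 for the first, 21.9 and 71.0 for the second and 13.4 and 16.6 for the third, so the first and the third ranked low and the second had widely spread replicates. The fourth, in an intron of the neighbouring gene Ncald at 37331364 to 37331783, had 66.3 and 56.9, the highest of the 4. Of all coding genes 4.32% had at least 1 peak in their 50 kb window in WT and none in Spen KO clone 3, and 0.085% had at least 4 in WT and none in Spen KO clone 3, a count set after Grhl2 had been seen and over genes that share windows.

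The nearest Spen KO clone 3 peak lay 225 kb from the Grhl2 body. Between the last Spen KO clone 3 peak before the gene and the first after it ran 953 kb with 7 WT peaks, of which 2 were at or above the median of the WT list. Of 23636 stretches between neighbouring Spen KO clone 3 peaks 5 held 7 or more WT peaks, a count made after Grhl2 had been seen. Within 1 Mb 14 of 32 WT peaks and 4 of 22 Spen KO clone 3 peaks were in one list only. The WT count includes the 4 WT-only peaks at Grhl2 itself, so it does not describe the surroundings alone. The 18 shared peaks within 1 Mb had a median shift of -12.0 points. On chr15 32.1% of WT peaks and 26.0% of Spen KO clone 3 peaks were in one list only. The part of the surroundings in the Grhl2 result was not tested. Without Grhl2 the WT-only share at the other genes was 18.75%. The sequence at the centre of the WT-only peak with the highest rank is shown because it holds both the OTX letters TAATCC and the octamer ATGCAAAT, each on the reverse strand, in capitals and parted by a pair of bases.
Grhl2 downstream, in an intron of Ncald, mm9 chr15:37331424-37331723, plus strand: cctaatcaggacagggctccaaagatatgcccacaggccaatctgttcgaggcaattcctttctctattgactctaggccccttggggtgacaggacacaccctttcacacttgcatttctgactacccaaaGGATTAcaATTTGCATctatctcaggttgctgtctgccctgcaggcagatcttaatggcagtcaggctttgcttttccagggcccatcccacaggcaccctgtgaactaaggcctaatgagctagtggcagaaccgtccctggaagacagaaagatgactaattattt

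**Figure D3:**
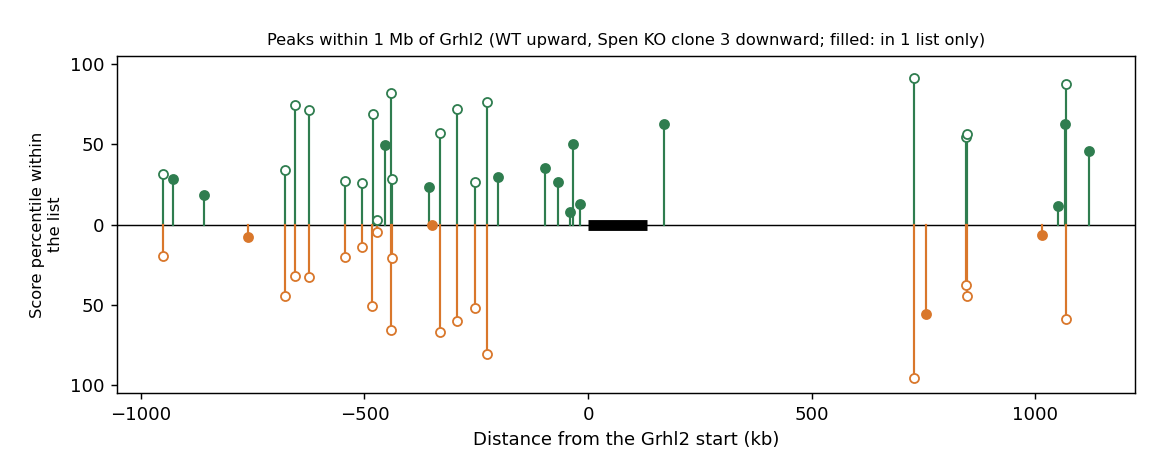
Peaks within 1 Mb of Grhl2, by distance of the midpoint from the Grhl2 start in kb (x axis) and score percentile within the list (y axis, WT upward in green and Spen KO clone 3 downward in orange). Filled circles are peaks in 1 list only and the black bar is the gene body. No Spen KO clone 3 peak lies in the 953 kb around the gene, in which WT has 7.

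Foxd3, a forkhead factor of pluripotent cells and neural crest, lies on the plus strand of chr4 from 99322990 to 99325362. Its shared peak, in an exon of Gm12682 14.1 kb downstream of the Foxd3 start, had replicate percentiles of 33.5 and 65.8 in WT and 61.5 and 61.0 in Spen KO clone 3, which overlap. A peak 14.1 kb upstream was in Spen KO clone 3 only, at 19.8 and 51.3. Sox11, an HMG-box factor of neural progenitors, lies on the minus strand of chr12 from 28025562 to 28027574 and had no peak within 50 kb. The nearest peak was 160 kb away in both lists. Over all coding genes 14.0% had no peak in the window in either list. A gene without a listed peak may still be accessible below the thresholds of the lists.

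The 13 shared peaks at the 8 genes had a median shift of 9.47 points (quartiles -6.76 to 11.5), 9 upward and 4 downward. Over the whole genome shared peaks, counted in the Spen KO clone 3 list (n = 16892), had a median shift of -0.0231 points (quartiles -9.68 to 9.47). The 10 distal peaks among the 13 had a median shift of 10.6 points, against 3.35 over the 8937 distal shared peaks of the genome. The median of the 13 peaks did not hold up against the replicates: it was -0.000934 points by replicate 2 alone and -0.458 by replicate 1 alone. Without Lef1 it was 2.99. By the rule on both replicates 2 peaks were higher in Spen KO clone 3, 2 were lower and 9 overlapped, against 23.0% higher and 22.8% lower among all shared peaks. With a separation of at least 10 points 1 was higher and 2 were lower, against 8.89% and 7.91%. The replicates of the 13 peaks differed by a median of 17.1 points in WT and 17.9 in Spen KO clone 3. The genome-wide medians were 8.84 and 8.91 points, taken over peaks that were not matched to the 13. The replicates of the 13 peaks therefore lay further apart than is typical of the lists, and their shifts carry that error.

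**Figure D4:**
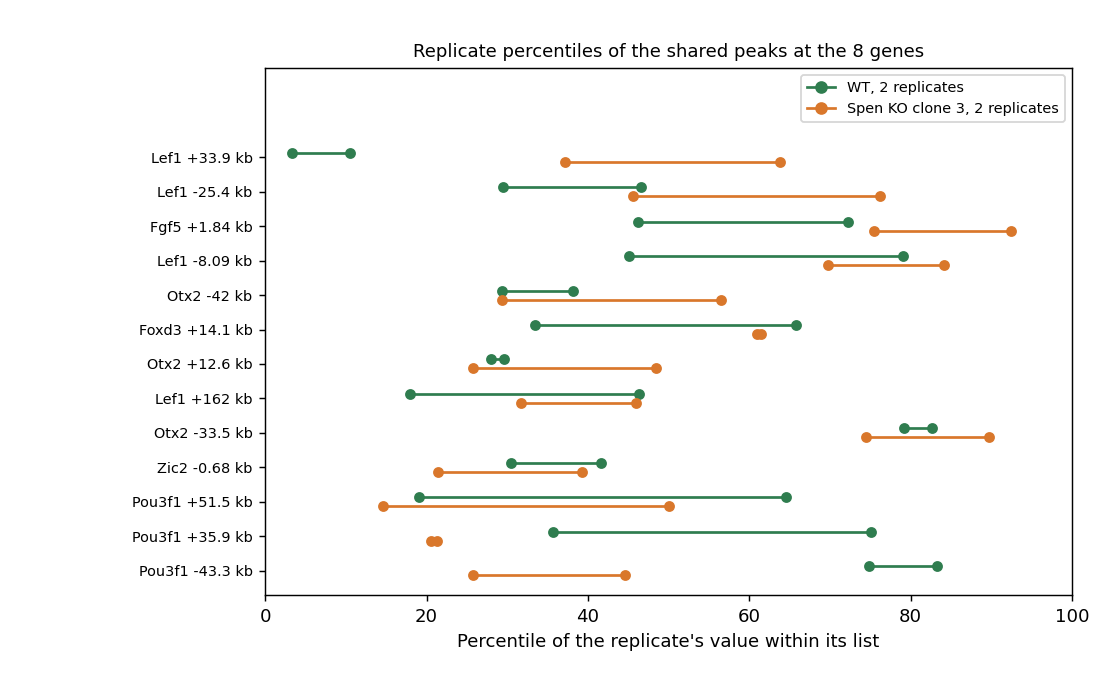
Replicate percentiles of the 13 shared peaks (x axis, percentile of the replicate's value within its list) for WT (green) and Spen KO clone 3 (orange), each line joining the 2 technical replicates, ordered by the shift in mean percentile. Labels give the gene and the distance of the midpoint from its start. The lines do not overlap for Lef1 at 33.9 kb and Fgf5, higher in Spen KO clone 3, and for 2 Pou3f1 peaks, lower in Spen KO clone 3.

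Length, GC content and motifs were not used by the rule. The peaks' median length was 510 bp in WT and 513 bp in Spen KO clone 3, against 546 and 526 bp over all peaks, and their median GC content was 55% in both lists, against 57.7% and 57.0%. Most of the peaks were distal, and distal peaks were set beside distal peaks: the median length at the 8 genes was 492 bp in WT and 506 bp in Spen KO clone 3, against 486 and 482 bp over all distal peaks, and the median GC content 52.7% and 54.7%, against 52.7% in both lists. The WT peaks had a median percentile of 47.0 and the Spen KO clone 3 peaks one of 36.8, but among the distal peaks these were 43.7 and 42.9, against 42.2 and 45.9 over all distal peaks. Motifs were searched on both strands of the 300 bp around each midpoint. The ZIC letters CCTGCTG were in 6 of 20 WT peaks (30.0%) and 3 of 19 Spen KO clone 3 peaks (15.8%), against 16.8% and 16.3% of all peaks and 20.6% and 19% of all distal peaks. The OTX letters TAATCC were in 3 WT peaks (15%) and 1 Spen KO clone 3 peak (5.26%), against 5.78% and 6.05% of all peaks and 7.28% and 7.38% of all distal peaks. The octamer ATGCAAAT was in 1 WT peak and no Spen KO clone 3 peak, against 3.30% and 3.34% of all peaks and 4.73% and 4.56% of distal ones. The TCF/LEF letters CTTTGAT were also in 1 WT peak and none in Spen KO clone 3, against 3.13% and 3.09% of all peaks and 4.42% and 4.14% of distal ones, and the GRHL letters AACCNGGTT were in none. The 13 shared peaks were not centred alike: their windows lay 2 to 162 bp apart between the lists (median 36 bp). A ZIC match near Otx2, an OTX match near Pou3f1 and the TCF/LEF match near Lef1 were in the WT window of a shared peak and not in its Spen KO clone 3 window, so part of the difference in counts between the lists comes from the windows. Of the peaks in one list only, ZIC was in 2, OTX in 1 and the octamer in 1 in WT, and none of the motifs was in the 6 of Spen KO clone 3.

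The 16 other formative and primed genes had 60 peaks in each list, of which 21 (35.0%, 24.2% to 47.6%) were in one list only in either case, and their 39 shared peaks had a median shift of -2.73 points, with 9 higher and 13 lower in Spen KO clone 3. The 19 family members had 49 peaks in WT and 51 in Spen KO clone 3, of which 17 and 18 were in one list only. Their shared peaks had a median shift of 1.47 points, with 7 higher and 7 lower. The 11 naive genes had 32 peaks in WT with 8 in WT only (25%) and 42 in Spen KO clone 3 with 17 in that list only (40.5%, 27.0% to 55.5%), and a median shift of 0.376 points. Over all peaks 25.7% were in WT only and 28.6% in Spen KO clone 3 only, and over all distal peaks 29.4% and 38.0%. Of all shared peaks 23.0% were higher and 22.8% lower in Spen KO clone 3. The shares of these lists and of the 8 genes, 35.0% and 31.6%, were not tested against each other.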

How the data were processed

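The 2 lists are the authors' own. They trimmed reads with CutAdapt, aligned to mm9 with Bowtie2, removed duplicates, called MACS2 peaks per technical replicate and combined replicates by IDR (largest 0.0500). Tool versions are not given in the sources used here. Per peak, the authors deposited coordinates, length, both replicate values and an IDR. Only uniquely mapped reads were kept, which can lower peaks in repeats. No reads were analysed, and whether a peak is listed depends on each list's thresholds and depth.

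The analysis kept chromosomes 1 to 19 and X (55 WT and 66 Spen KO clone 3 peaks were left out). Genes, starts and sequence came from GENCODE M1 and the NCBIM37 genome, which is mm9, and coordinates count from 1. The score is the mean of the 2 replicate values. A start peak has a base within 1000 bp of an annotated start of the gene, and distances run from the outermost start to the peak midpoint. Analyses used Python 3.11.15, numpy 2.4.6, pandas 2.3.3 and scipy 1.17.1, and the overlap code was tested on simulated data. The genes, lists and comparisons were chosen with earlier results of these data known. The text names all 8 genes, every start peak, the highest distal peak of each gene, peaks in 1 list only at or above the list's median and the shared peaks with the largest shifts. Alternatives covered the window, overlap, IDR, list length, start distance, ranking and replicates, and leaving out Grhl2, Pou3f1 or Lef1 was added after seeing the data.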

Additional observations from a re-analysis of the deposited data

How the results depend on the processing

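Of 40 recomputed values 23 stayed within the replicate spread, the 95% binomial interval or 1.5 times the reported count, 15 moved further and 2 changed sign. The 8 genes had 20 WT and 19 Spen KO clone 3 peaks as reported, 12 and 8 with an IDR of at most 0.01, 10 and 9 with a window of 20 kb and 32 in both lists with 100 kb. At an IDR of at most 0.01 the WT-only share was 66.67%, where the reported share is 35.0%. With starts extended to 2000 bp, WT had 3 start peaks in place of 2 and Spen KO clone 3 had 2 in place of 1. The median shift of 9.47 points was -0.0009342 without replicate 1 and -0.4583 without replicate 2. It was 10.87 with 20 kb, 1.027 with 100 kb, 8.347 with ranks among shared peaks, 6.996 with ranks within start and distal peaks, and, added after seeing the data, 10.64 without Pou3f1 and 2.987 without Lef1. With a separation of at least 10 points, 1 shared peak was higher in both replicates in place of 2. The causes of these changes were not tested, apart from the smaller windows and lists, which hold fewer peaks by construction. With 1 list per line, no culture or clone error can be given, and read depth is unknown.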
